A study of Mus musculus with 24 samples.

Results

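Epididymal fat of control mice was compared between circadian time (CT) 13 and CT1, the start of the subjective night against the start of the subjective day, 12 h apart. The comparison rests on 6 of the 24 arrays of the study, 3 mice killed at CT13 and 3 at CT1. Arrays were chosen by their titles, and genes by having a probe set with a single symbol, of which the brightest was taken for each gene. Of 22180 such genes, 15526 with a mean signal above the 30th percentile were tested.

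The study measured RNA of this depot, labelled eWAT for epididymal white adipose tissue, on Affymetrix arrays, with 1 array a mouse and 3 mice in each of 8 groups of genotype and time. Control mice (CON) were Syt10-Cre/Cre x Bmal1 +/-. Mutant mice (MUT) were Syt10-Cre/Cre x Bmal1 flox/-, and per the labels have no working clock in the SCN, the suprachiasmatic nucleus, which is the brain's pacemaker. Both genotypes were sampled at CT1, CT7, CT13 and CT19 on day 2 of constant darkness following 2 weeks of light and dark. The hours from lights off that the labels give for the first time point do not match CT1 of that day if the night lasts 12 h, so times are given here by their CT labels. Both genotypes carry Cre on both Syt10 alleles, and the controls also carry 1 Bmal1 allele that is not wild type, so no mouse of the series has a wild-type Bmal1 pair. The Cre follows the Syt10 promoter. The sources used here do not give age. One label field gives mediobasal hypothalamus as the source, which goes against the titles.

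The mammalian clock is a loop of transcription factors. ARNTL (also called BMAL1) pairs with CLOCK or NPAS2 and activates genes through E-boxes, among them Per, Cry, Bhlhe40, Nr1d1 and the PAR bZIP factors Dbp, Tef and Hlf. PER and CRY proteins and the DEC factors (Bhlhe40, Bhlhe41) act against this activation, and NR1D1 and NR1D2 repress Arntl, Clock and Npas2 through ROR response elements. White fat has its own clock, and in nocturnal mice its daily programme is also shaped by feeding, body temperature, sympathetic tone and glucocorticoids, all of which change around the start of the night.

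Values are log2 signals, so a difference of 1 is a doubling, and differences are given as CT13 minus CT1 with the standard error (SE) of a model over all 24 arrays. A gene was called higher or lower where limma's moderated test gave an adjusted p under 0.05 over all 15526 genes. Array medians lay between 7.802 and 7.936 over the series, and the 6 arrays correlated at 0.9926 to 0.995 within a time and 0.9886 to 0.9922 between times. The spread of signals (SD over probe sets) was 1.583, 1.598 and 1.619 at CT13, against 1.626, 1.622 and 1.622 at CT1, with CT13 replicate 1 the narrowest. The 11 adipocyte markers had a median log2 signal of 13.35, at the 99.8th percentile of genes tested, and the 9 tested of 14 markers of hypothalamus and neurons stood at the 26.1th percentile, although brightness also depends on the probes. The signals are thus those of fat, as the titles say. In whole tissue, fewer cells of a type and less RNA per cell cannot be told apart. Precision is limited by having 3 arrays a group.

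Between CT13 and CT1, 1103 genes were called, 7.1% of those tested. At CT13, 262 genes were higher (1.69%) and 841 were lower (5.42%). Most differences were small. The median size among called genes was 0.33, 73 genes differed by 1.5-fold or more (23 higher, 50 lower), and 8 by 2-fold or more (5 higher, 3 lower). The signals of the 2 times did not overlap in 1077 of the 1103 called genes and in 29.8% of all genes tested. The largest called increases were those of Hspb7, Fmo2, Bhlhe40, Wee1 and Usp2, and the largest called decreases those of Nr1d1, Pon1, Npas2, Adamts12 and Klb.

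The split between higher and lower calls depended on how arrays were scaled. Of the called genes 23.8% were higher as deposited, 41.4% of 959 after quantile normalization, 42.7% of 780 after cyclic loess and 17.5% of 1216 with arrays shifted to the same median. The median difference over all genes was -0.0128 as deposited. In the 10 bins of mean signal it was 0.0524 in the dimmest and -0.0986 in the 8th, and lower calls numbered 12 in the dimmest and 169 in the 9th. After loess the bin medians lay between -0.0131 and 0.0196. The narrower spread of the CT13 arrays moves with this trend, and its part in the trend was not tested. Across all 3 other scalings 607 of the calls held (180 higher, 427 lower). Single arrays also moved the count. It was 275 without CT13 replicate 1, 305 without CT1 replicate 3 and 473 without CT1 replicate 1, with 24.6 to 25.2% of them higher. In all 21 alternatives 106 genes were called (27 higher, 79 lower). Genes with a mean signal under 8.48 were dropped by the stricter filter among these alternatives and could not be counted. The 106 and their split thus cover brighter genes only.

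**Figure D1:**
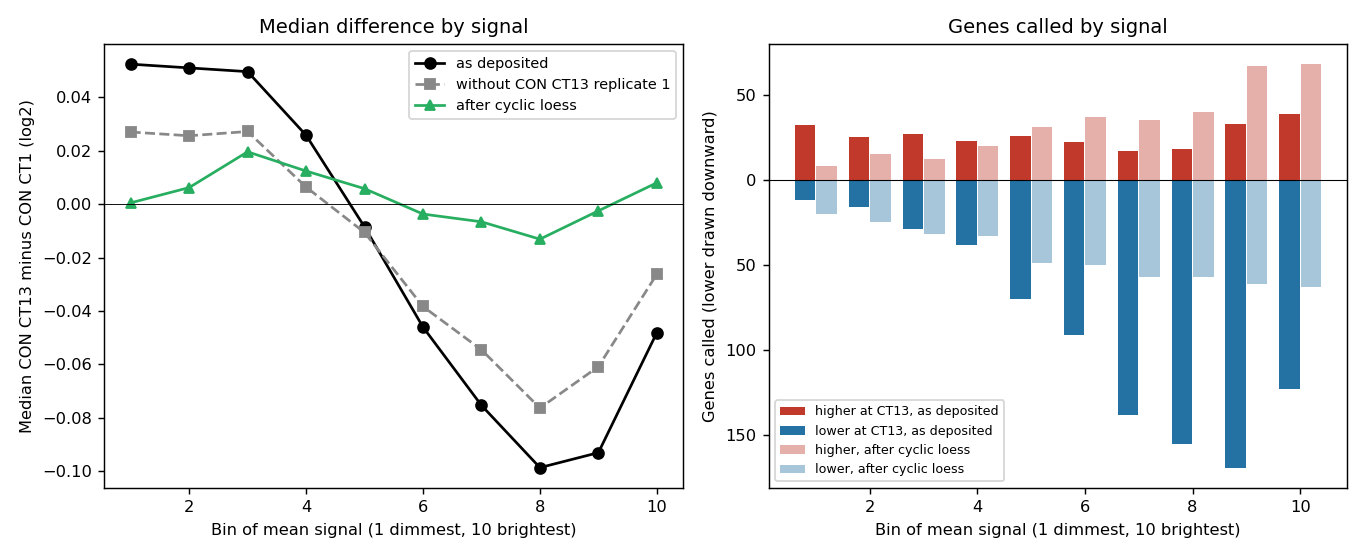
Left, the median difference between CON CT13 and CON CT1 (log2) in 10 bins of genes ordered by mean signal, as deposited (black), without CT13 replicate 1 (grey, dashed) and after cyclic loess (green). Right, the genes called in each bin, with those higher at CT13 drawn upward and those lower drawn downward, as deposited (dark) and after cyclic loess (pale). As deposited the dimmest bin has 32 higher and 12 lower calls and the 9th bin 33 and 169, and after loess the 9th bin has 67 and 61.

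Among the clock genes, 14 of the 20 tested members of the 3 clock lists were called, 10 higher and 4 lower at CT13. Over all genes tested 7.1% were called. Per2 had no tested probe set of its own. The activators were low at CT13, with 3 of 4 called lower, while all 7 outputs were higher. Of 9 repressors 3 were higher and 1 was lower. The signals of the 2 times overlapped in 1 of the 14 called genes, Dbp.

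Nr1d1, which encodes the heme-binding repressor REV-ERB alpha, had the largest difference of all genes. Its log2 signal was 10.14, 9.73 and 10.31 at CT13, against 11.81, 12.13 and 12.19 at CT1. Every CT13 mouse was thus far below every CT1 mouse, by 3.95-fold on average (difference -1.98 ± 0.17, adjusted p = 9.58e-07). Nr1d2, its close relative, was not called (9.55, 9.28 and 9.88 at CT13, against 9.48, 9.67 and 9.75 at CT1; -0.065 ± 0.19, adjusted p = 0.859), and its groups overlapped. Its mean was 10.37 at CT7 and 8.30 at CT19, so that CT13 and CT1 lie on the 2 flanks of its daily course.

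Npas2, the partner of ARNTL that stands in for CLOCK, had 8.23, 8.65 and 8.41 at CT13, against 9.81, 9.56 and 9.44 at CT1. It was 2.26-fold lower (-1.18 ± 0.17, adjusted p = 0.000772). Arntl itself was 8.27, 8.68 and 8.13 at CT13, against 9.13, 9.0 and 8.73 at CT1, a narrow gap between mice of the 2 times. Its difference was -0.59 ± 0.14 (adjusted p = 0.0171), and the call ended without CT13 replicate 1, CT13 replicate 3 or CT1 replicate 1 (adjusted p up to 0.0836). The sources used here do not say whether its probes lie in the part that the Bmal1 alleles lack. Clock had 10.59, 10.89 and 10.62 at CT13, against 11.22, 11.03 and 11.10 at CT1 (-0.41 ± 0.09, adjusted p = 0.00753), and its call ended without CT13 replicate 1 (adjusted p = 0.0535). Rora, a nuclear receptor that activates through the elements at which NR1D1 represses, gave -0.014 ± 0.09 (adjusted p = 0.935).

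Among the repressors that were higher, Bhlhe40 (DEC1) led. It had 9.80, 10.30 and 9.68 at CT13, against 8.73, 8.71 and 8.80 at CT1, with the CT1 mice close together. This was 2.27-fold higher (1.18 ± 0.22, adjusted p = 0.00371). Per3 had 9.85, 9.88 and 10.15 at CT13, against 9.03, 8.95 and 9.36 at CT1 (0.85 ± 0.16, adjusted p = 0.00368). Cry1, the cryptochrome that peaks late in the cycle, had 8.66, 8.78 and 8.53 at CT13, against 8.24, 8.44 and 8.33 at CT1 (0.32 ± 0.09, adjusted p = 0.0358). The Cry1 call ended with arrays shifted to the same median and without CT13 replicates 1 or 2 or CT1 replicates 1 or 3 (adjusted p up to 0.138).

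Per1 missed the threshold although its groups did not overlap. It had 10.64, 10.69 and 10.86 at CT13, against 10.28, 10.07 and 10.49 at CT1 (0.45 ± 0.14, adjusted p = 0.0568), and it passed after quantile normalization and after loess. Bhlhe41 (DEC2) gave 0.39 ± 0.24 (adjusted p = 0.317), and Ciart, a repressor of CLOCK and ARNTL, 0.17 ± 0.07 (adjusted p = 0.149). Cry2 gave -0.028 ± 0.07 (adjusted p = 0.826). The signs of Rora, Cry2 and Nr1d2 turned with the scaling. The mean of Ciart was highest at CT7, at 8.78, against 7.72 at CT19.

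All 7 outputs were higher at CT13 than at CT1, but their highest CON means stood at different times. For Dbp this was CT7 (10.655), for Wee1 CT13 (8.69) and for Nfil3 CT19 (9.26). Wee1, a kinase that holds cells before mitosis, had 8.54, 8.67 and 8.86 at CT13, against 7.42, 7.54 and 7.73 at CT1. Every CT13 mouse lay above every CT1 mouse (2.18-fold higher, 1.12 ± 0.13, adjusted p = 4.13e-05). Usp2, a deubiquitinating enzyme, had 9.88, 10.07 and 9.73 at CT13, against 8.91, 8.83 and 8.78 at CT1, and was 2.08-fold higher (1.05 ± 0.10, adjusted p = 2.64e-06). Tspan4, a tetraspanin of the cell surface, had 9.93, 9.97 and 10.32 at CT13, against 9.19, 9.36 and 9.30 at CT1 (0.79 ± 0.10, adjusted p = 6.76e-05). Usp2 and Tspan4 kept their calls in all 21 alternatives. Wee1 kept its call in the 20 in which it was tested, and was too dim for the stricter filter on mean signal.

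The PAR bZIP factors, activators that bind D-boxes, were higher by smaller amounts. Tef had 9.24, 9.20 and 9.34 at CT13, against 8.63, 8.65 and 8.78 at CT1 (0.57 ± 0.11, adjusted p = 0.00484). Hlf had 8.78, 8.64 and 8.72 at CT13, against 8.24, 8.48 and 8.30 at CT1 (0.37 ± 0.08, adjusted p = 0.00821). Dbp had 9.62, 9.33 and 9.95 at CT13, against 8.68, 9.09 and 9.33 at CT1 (0.60 ± 0.17, adjusted p = 0.0341), and its lowest CT13 mouse lay level with its highest CT1 mouse. Nfil3, which represses at the same elements, was also higher, with 8.96, 9.24 and 8.84 at CT13, against 8.82, 8.41 and 8.68 at CT1 (0.38 ± 0.10, adjusted p = 0.0288). The calls of Dbp and Nfil3 each ended under the omission of 4 of the 6 arrays (adjusted p up to 0.171 and 0.125). For Dbp these were CT13 replicates 1 and 3 and CT1 replicates 1 and 2, and for Nfil3 CT13 replicates 1 and 2 and CT1 replicates 2 and 3. That of Hlf ended without CT13 replicate 1 (adjusted p = 0.0515).

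**Figure D2:**
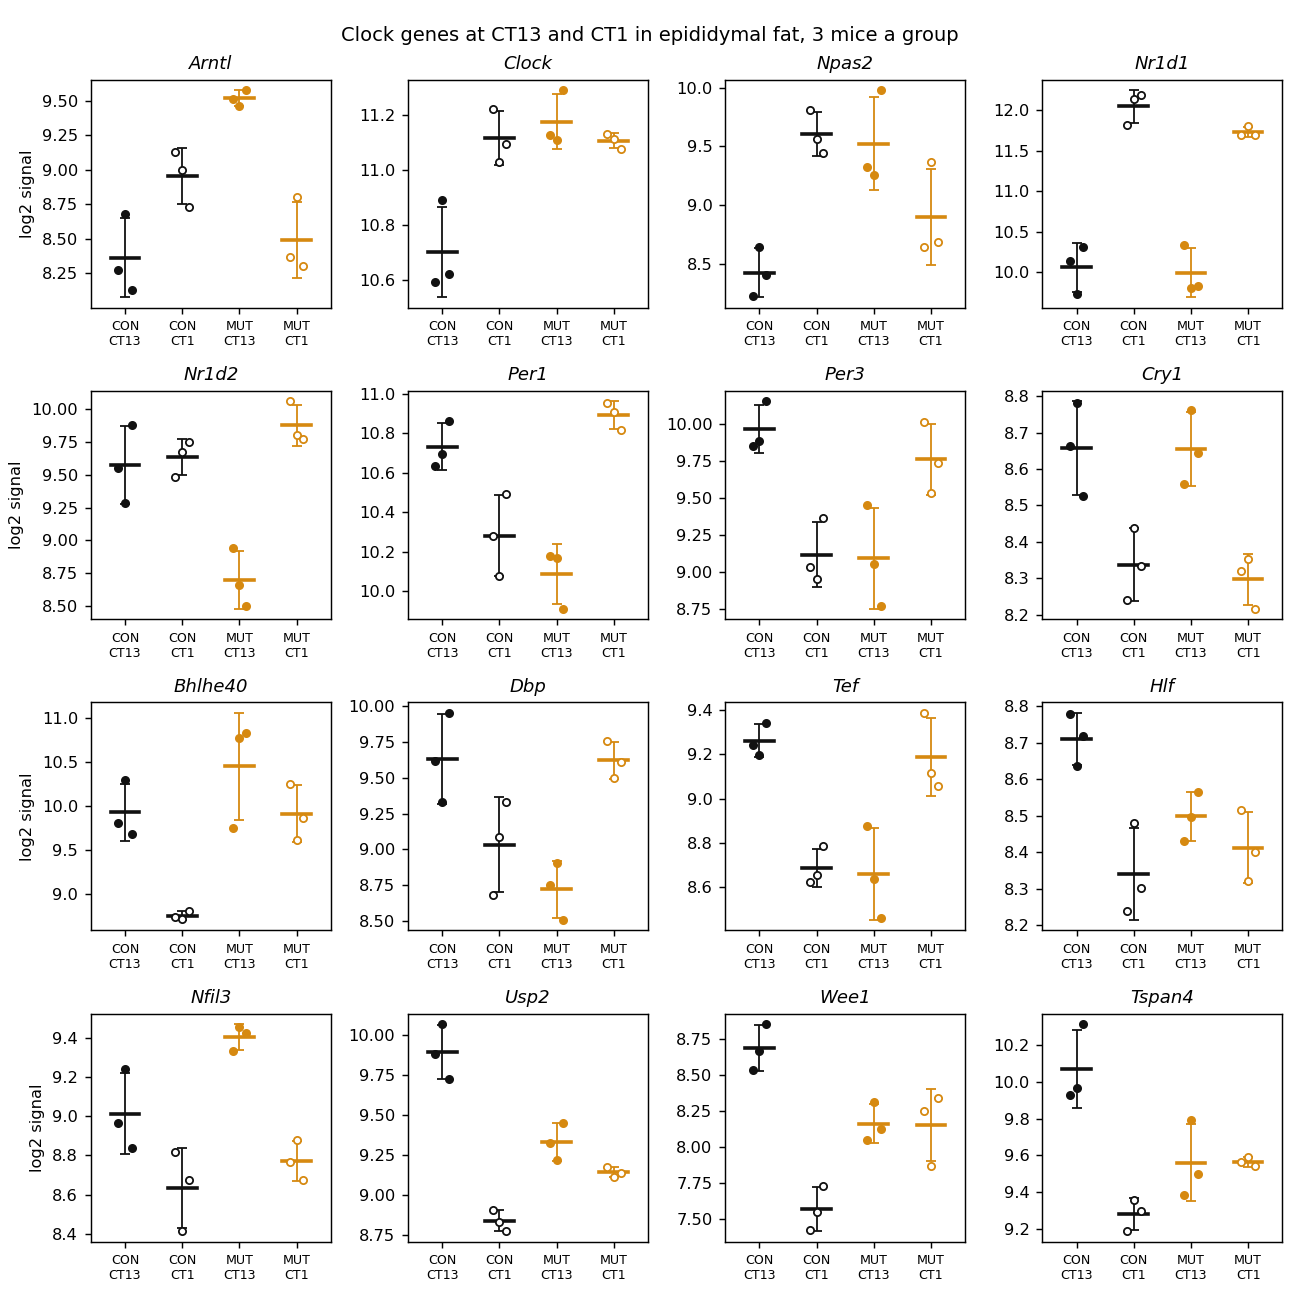
Log2 signal of 16 clock genes in CON mice at CT13 and CT1 (black) and MUT mice at CT13 and CT1 (orange), with 1 point a mouse, the mean (bar) and SD (whisker, n = 3), filled at CT13 and open at CT1, and a separate vertical scale for each gene that does not start at 0. Nr1d1 is low at CT13 in both genotypes, while Arntl, Per1, Per3, Dbp and Tef differ in opposite directions in CON and MUT.

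Promoter windows show the sequence in which clock motifs were searched. They run from 250 bases before to 50 after a gene's start (RefSeq, GRCm38.p6), and those of 2 called clock genes are printed, Per3 because it holds motifs and Nr1d1 because its difference was the largest. Capitals mark D-boxes, searched on both strands as TTATGNAA and TTACGNAA, and the windows were also searched for the E-box CACGTG and for the ROR response element. Per3 lies at chr4:151044616-151044915 on the minus strand and holds D-boxes at positions -205 and -158 from the start. Nr1d1 lies at chr11:98775328-98775627 on the minus strand, and none of the 3 motifs is in this window.
Per3: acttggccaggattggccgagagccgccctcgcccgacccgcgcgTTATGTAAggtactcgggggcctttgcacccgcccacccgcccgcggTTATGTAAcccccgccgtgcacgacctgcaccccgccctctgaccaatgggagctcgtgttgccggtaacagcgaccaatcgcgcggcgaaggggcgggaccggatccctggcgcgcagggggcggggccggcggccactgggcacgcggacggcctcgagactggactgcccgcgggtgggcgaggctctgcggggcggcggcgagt
Nr1d1: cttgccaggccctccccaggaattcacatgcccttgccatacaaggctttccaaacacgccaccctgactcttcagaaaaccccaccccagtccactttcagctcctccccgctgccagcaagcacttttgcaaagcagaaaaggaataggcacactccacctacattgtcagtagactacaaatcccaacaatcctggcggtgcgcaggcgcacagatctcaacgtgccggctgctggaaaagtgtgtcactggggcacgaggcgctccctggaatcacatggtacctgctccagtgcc

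The windows of Npas2 and Usp2 held none of the 3 motifs either, and Bhlhe40 and Wee1 are named without a window. An E-box was found in 3 of the 8 higher clock genes that had a window (Cry1, Tef and Tspan4), and the ROR response element in 1 of the 4 lower ones (Arntl). Over all called genes the E-box was in 8.85% of the windows of the higher genes, 12.6% of those of the lower genes and 10.8% of those of all genes tested. The D-box was in 6.25% of 192 windows of higher genes, 2.22% of 675 windows of lower genes and 3.44% of 12046 windows of all genes tested. The D-box holders among the higher genes were 12, Crtac1, Nrg4, Per3, Hspa2, Il33 and Xlr3a among them. The ROR response element was in 0.521%, 0.296% and 0.266% of the windows of higher, lower and all tested genes. Of all 32851 windows, 7.15% held an E-box, 3.99% a D-box and 0.384% a ROR response element. The E-box and D-box shares were not tested.

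Of the 12 largest called increases, 7 lay outside the clock lists. Hspb7, a small heat shock protein known from heart and muscle, had 9.44, 8.50 and 9.54 at CT13, against 8.11, 7.88 and 7.53 at CT1. It was 2.5-fold higher (1.32 ± 0.27, adjusted p = 0.00703), with CT13 replicate 2 below the other 2 mice, and its call ended without 3 arrays of narrow spread, CON CT13 replicate 1 and CON CT7 replicates 2 and 3 (adjusted p = 0.0594). Fmo2, a flavin monooxygenase, had 10.77, 10.99 and 11.69 at CT13, against 9.98, 10.10 and 9.63 at CT1 (2.38-fold, 1.25 ± 0.25, adjusted p = 0.00654). Lep, which encodes the satiety hormone leptin, had 12.69, 12.56 and 12.96 at CT13, against 12.02, 11.94 and 11.76 at CT1. Leptin RNA was thus 1.78-fold higher, with no overlap (0.83 ± 0.14, adjusted p = 0.00219).

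Tsc22d3, which encodes the glucocorticoid-induced leucine zipper GILZ, had 9.85, 9.79 and 9.70 at CT13, against 8.85, 9.02 and 9.05 at CT1. Its mice lay close together at both times (1.75-fold, 0.81 ± 0.08, adjusted p = 2.64e-06). Crtac1, a secreted matrix protein known from cartilage, had 8.75, 8.39 and 8.55 at CT13, against 7.91, 7.88 and 7.82 at CT1 (0.69 ± 0.10, adjusted p = 0.0012). Srpx2, a secreted sushi-domain protein, had 9.94, 9.87 and 10.94 at CT13, against 9.48, 9.63 and 9.32 at CT1 (0.78 ± 0.24, adjusted p = 0.0477). CT13 replicate 3 was about 1 above the other CT13 mice in Srpx2, and the call ended without any of the 6 arrays but CT13 replicate 2 (adjusted p up to 0.218), with arrays shifted to the same median (0.0548) and with the mesothelium score as a covariate (0.0703). The miRNA gene Mir466h gave 0.71 ± 0.16 (adjusted p = 0.0105), a call that ended without CT1 replicate 3 (adjusted p = 0.0539).

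The largest called decreases after Nr1d1 follow. Pon1, a paraoxonase carried on high-density lipoprotein, had 7.33, 7.69 and 6.90 at CT13, against 8.25, 9.0 and 8.66 at CT1. It was 2.51-fold lower (-1.33 ± 0.36, adjusted p = 0.0273), and its SE was the widest among these genes. Apoc1, an apolipoprotein, had 10.95, 10.84 and 10.32 at CT13, against 11.40, 11.78 and 11.50 at CT1 (-0.86 ± 0.26, adjusted p = 0.0474). Both calls were unstable. That of Pon1 ended without CT13 replicates 1 or 3 or CT1 replicates 2 or 3 (adjusted p up to 0.0913). That of Apoc1 ended without any single array of the 6 (adjusted p up to 0.158), after quantile normalization and after loess.

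Klb, which encodes beta-klotho, the co-receptor for FGF21, had 9.99, 10.31 and 9.85 at CT13, against 11.20, 10.76 and 10.98 at CT1. It was 1.9-fold lower with no overlap (-0.93 ± 0.13, adjusted p = 0.000772). Adamts12, a secreted metalloprotease, had 9.63, 9.67 and 9.40 at CT13, against 10.68, 10.35 and 10.63 at CT1 (-0.99 ± 0.15, adjusted p = 0.00161). Acvr1c, which encodes the activin receptor ALK7 of fat cells, had 10.62, 10.88 and 10.61 at CT13, against 11.50, 11.38 and 11.53 at CT1 (-0.76 ± 0.13, adjusted p = 0.00304). Trp53i11 gave -0.82 ± 0.15 (adjusted p = 0.00332) and Lrig1, a brake on receptor tyrosine kinases, -0.76 ± 0.12 (adjusted p = 0.00161). Pfkfb3, which makes the activator of glycolysis fructose 2,6-bisphosphate, had 10.31, 10.46 and 10.21 at CT13, against 11.05, 11.13 and 11.16 at CT1 (1.73-fold lower, -0.79 ± 0.10, adjusted p = 6.76e-05). These 6 genes kept their calls in all 21 alternatives. B3galt2, a galactosyltransferase, gave -0.78 ± 0.19 (adjusted p = 0.0152), and its call ended without CT13 replicates 1 or 3 or CT1 replicates 1 or 3 (adjusted p up to 0.0821).

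Mir708 was the miRNA gene with the largest decrease. It had 8.52, 9.29 and 8.81 at CT13, against 9.85, 9.45 and 10.06 at CT1 (1.89-fold lower, -0.92 ± 0.19, adjusted p = 0.00722). Its call ended without CT13 replicate 1 or CT1 replicate 3 (adjusted p up to 0.0567). Mir339 was higher, with 8.65, 8.69 and 8.63 at CT13, against 8.01, 8.06 and 8.24 at CT1 (0.55 ± 0.10, adjusted p = 0.00372). Its gene lies inside 3110082I17Rik, which gave 0.0077 (adjusted p = 0.962). The array labels total RNA, so whether these probe sets read the mature miRNA or a longer transcript was not tested. The mature sequences are given as in RefSeq (GRCm38.p6) with the seed, bases 2 to 8, in capitals. None of the 4 seeds is shared between the 2 genes. Mir708 lies on chromosome 7 and Mir339 on chromosome 5.
mmu-miR-708-5p: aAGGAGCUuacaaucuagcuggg
mmu-miR-708-3p: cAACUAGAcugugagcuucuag
mmu-miR-339-5p: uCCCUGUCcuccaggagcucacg
mmu-miR-339-3p: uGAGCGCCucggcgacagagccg

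Calls in the metabolic lists are set beside 1.69% higher and 5.42% lower over all genes. Lower calls were 1 to 3 in the lists that had any, and whether a list differs from all genes was not tested. Of 23 genes of fatty acid and triglyceride synthesis 1 was higher, the phosphatidate phosphatase gene Lpin1 (0.29 ± 0.09, adjusted p = 0.048), and the list median was -0.073. The Lpin1 call ended under each of the 3 other scalings and without each of the 6 arrays (adjusted p up to 0.19). Fatty acid synthase (Fasn) had 13.63, 13.79 and 13.10 at CT13, against 13.64, 13.89 and 13.85 at CT1 and was not called (-0.29 ± 0.16, adjusted p = 0.269). Of 16 genes of lipolysis and lipid droplets 2 were lower. Hcar2, the receptor through which niacin and beta-hydroxybutyrate restrain lipolysis, had 8.88, 8.75 and 8.67 at CT13, against 9.55, 9.26 and 9.73 at CT1. It was 1.67-fold lower (-0.74 ± 0.17, adjusted p = 0.0105), a call that ended without CT1 replicate 3 (adjusted p = 0.0681). Mgll, which cleaves monoglycerides in the last step of lipolysis, had 11.18, 11.16 and 11.12 at CT13, against 11.47, 11.46 and 11.48 at CT1. Its mice agreed closely within each time (-0.32 ± 0.08, adjusted p = 0.0142), and its call too ended without CT1 replicate 3 (adjusted p = 0.058).

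Of 10 genes around lipoprotein lipase 1 was lower. Angptl4, the secreted inhibitor of that enzyme, had 10.84, 11.00 and 11.28 at CT13, against 11.61, 11.82 and 11.88 at CT1. It was 1.66-fold lower (-0.73 ± 0.13, adjusted p = 0.00371), and its call held in all 21 alternatives. Angptl8, another member of its family, was the highest of the list at 0.83 ± 0.33 but was not called (adjusted p = 0.123). Of 14 genes of fatty acid oxidation 2 were lower and 12 had differences below 0, with a median of -0.24, against -0.0128 over all genes. These genes are bright, with a median at the 89.1th percentile of signal, and the 9th bin of mean signal had a median difference of -0.093. After loess the median of the list was -0.17. Acadl, the long-chain acyl-CoA dehydrogenase, had 10.99, 11.42 and 11.22 at CT13, against 11.63, 11.65 and 11.67 at CT1 (-0.44 ± 0.09, adjusted p = 0.00837). Etfdh, which passes its electrons on to the respiratory chain, gave -0.40 ± 0.08 (adjusted p = 0.0086). Without CT13 replicate 1 both calls ended (adjusted p = 0.065 and 0.0641), and that of Etfdh also ended without CT1 replicate 3. Oxidative phosphorylation gave a similar picture, with 14 of 16 differences below 0, a median of -0.23 and 3 genes lower (Ndufs1, Sdhb and Cox4i1, from -0.39 to -0.32). None of the 3 was lower after quantile normalization or loess, where the list medians were -0.19 and -0.17.

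Of 18 genes of insulin signalling and glucose use 1 was higher and 2 were lower. Ppp1r3c, which brings protein phosphatase to glycogen, had 9.87, 10.17 and 9.72 at CT13, against 9.11, 9.38 and 9.39 at CT1 (0.63 ± 0.18, adjusted p = 0.0407). The lower ones were Pfkfb3 and Insr, the insulin receptor gene (-0.29 ± 0.08, adjusted p = 0.0407). The Ppp1r3c call ended without any array but CT13 replicate 3 (adjusted p up to 0.146). That of Insr ended after quantile normalization and loess and without CT13 replicates 1 or 3 or CT1 replicates 1 or 3 (adjusted p up to 0.192). The sign of this list's median turned with the scaling, as it did for the lists of lipoprotein lipase, ribosome biogenesis and the interferon response.

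Of 8 adipokine genes 3 were higher and 1 was lower. Beside Lep, Nrg4, a growth factor secreted by fat, had 9.89, 9.68 and 9.87 at CT13, against 9.33, 9.41 and 9.45 at CT1 (0.42 ± 0.09, adjusted p = 0.00946). Nampt, which makes the precursor of NAD, had 10.51, 10.61 and 10.27 at CT13, against 10.05, 10.06 and 10.06 at CT1 (0.41 ± 0.11, adjusted p = 0.0266). Agt, the angiotensinogen gene, was lower (-0.42 ± 0.11, adjusted p = 0.025). The Nrg4 call ended without CT13 replicate 1 (adjusted p = 0.0562), that of Nampt without any array but CT13 replicate 3 (up to 0.0992), and that of Agt after loess and without CT13 replicates 2 or 3 or CT1 replicates 1 or 3 (up to 0.0991). Adiponectin (Adipoq) had 11.18, 11.28 and 11.40 at CT13, against 11.32, 11.18 and 11.18 at CT1, and was not called (0.06 ± 0.07, adjusted p = 0.612).

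Of 16 genes of cholesterol synthesis 2 were lower and 14 had differences below 0 (median -0.091). Hmgcs1, the synthase that makes HMG-CoA, had 9.92, 10.17 and 10.11 at CT13, against 10.93, 10.55 and 10.94 at CT1. It was 1.67-fold lower (-0.74 ± 0.14, adjusted p = 0.00367), and its call held in all 21 alternatives. Cyp51, the lanosterol demethylase, gave -0.71 ± 0.20 (adjusted p = 0.0342), a call that ended without CT13 replicates 1 or 3 or CT1 replicates 2 or 3 (adjusted p up to 0.116). Slc7a8, a transporter of neutral amino acids, had 9.88, 9.75 and 9.91 at CT13, against 10.70, 10.35 and 10.33 at CT1 (-0.62 ± 0.12, adjusted p = 0.00528), the 1 call among 11 genes of amino acid transport and response. Atg7, needed to form autophagosomes, was the 1 lower gene of 15 of autophagy and lysosome (-0.33 ± 0.07, adjusted p = 0.00758), with an adjusted p of 0.0548 without CT13 replicate 1.

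Heat shock and chaperone genes were higher in 3 of 12 cases, and none was lower, with a median of 0.17. Over all genes 1.69% were higher and 5.42% lower, and whether the list differs from them was not tested. Hspa8, the constitutive HSC70, had 12.52, 12.51 and 12.67 at CT13, against 12.28, 12.14 and 12.19 at CT1 (0.37 ± 0.07, adjusted p = 0.00589). Hspa1b, an inducible HSP70, had 8.13, 8.08 and 8.57 at CT13, against 7.58, 7.72 and 7.69 at CT1 (1.51-fold, 0.59 ± 0.13, adjusted p = 0.0095). Hspb1, a small heat shock protein, had 9.94, 9.96 and 9.90 at CT13, against 9.45, 9.57 and 9.47 at CT1 (0.43 ± 0.11, adjusted p = 0.0189). Hspa1b has a near-identical neighbour gene, and the call of Hspb1 ended without CT13 replicate 1 or CT1 replicates 1 or 3 (adjusted p up to 0.0718). Where probe sets of a gene were averaged, the calls of both Hspb1 (0.21, adjusted p = 0.0887) and Hspa8 (0.19, adjusted p = 0.12) ended. Cirbp, an RNA-binding protein gene that rises in the cold and is turned down by warmth, was the 1 tested gene of its list. It had 8.32, 8.48 and 8.10 at CT13, against 8.72, 8.64 and 8.95 at CT1, the opposite direction to the heat shock genes (-0.47 ± 0.11, adjusted p = 0.0127). The Cirbp call ended without CT13 replicate 3 or CT1 replicate 3 (adjusted p up to 0.0839).

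Of 16 glucocorticoid targets 3 were higher and 1 was lower, against 1.69% higher and 5.42% lower over all genes. Whether the list differs from all genes was not tested. The higher ones were Tsc22d3, Fkbp5 and Map3k6, and the lower one was Angptl4. Fkbp5, a co-chaperone that restrains the glucocorticoid receptor, had 8.82, 8.51 and 8.50 at CT13, against 8.15, 8.09 and 7.98 at CT1 (0.54 ± 0.12, adjusted p = 0.0109). Its call ended without CT13 replicate 1 or CT1 replicate 3 (adjusted p up to 0.0786). Map3k6, a stress-activated kinase, had 9.58, 9.69 and 9.57 at CT13, against 9.26, 8.99 and 9.15 at CT1 (0.48 ± 0.09, adjusted p = 0.00431). The p53 list had 1 higher gene of 9, Phlda3 (0.63 ± 0.11, adjusted p = 0.00367), an inhibitor of Akt, and 1 lower, Sesn2 (-0.38 ± 0.11, adjusted p = 0.0351). The Sesn2 call ended after quantile normalization and loess and without CT13 replicates 1 or 2 or CT1 replicates 1 or 3 (adjusted p up to 0.163).

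The remaining pathway lists held few calls or none, beside 1.69% higher and 5.42% lower over all genes. No gene was called among 16 of the unfolded protein response (differences from -0.13 to 0.28), 12 immediate early genes (-0.32 to 0.64), 9 of inflammation (-0.043 to 0.26) and 7 of the cell cycle (-0.028 to 0.14). After quantile normalization and after loess 2 genes of the unfolded protein response and 1 immediate early gene were higher. Of 9 interferon response genes Ifit3 was higher (0.32 ± 0.10, adjusted p = 0.0498), a call that ended under 2 other scalings and without any array but CT13 replicate 2 (adjusted p up to 0.19). Of 14 genes of ribosome biogenesis 2 were lower, Pes1 (-0.25 ± 0.06, adjusted p = 0.0137) and its regulator Myc (-0.52 ± 0.12, adjusted p = 0.0121). The Myc call ended without CT1 replicates 1 or 3 (adjusted p up to 0.0588), and that of Pes1 after loess and without CT13 replicate 1 or CT1 replicate 1 (adjusted p up to 0.0731).

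Of 16 extracellular matrix genes 4 were lower and 1 was higher, against 5.42% lower and 1.69% higher over all genes. These genes are bright, with a median at the 86.3th percentile of signal. In the 9th bin of mean signal 169 of 1552 genes were lower, with a median difference of -0.093. Whether the list differs from genes of like signal was not tested. Col4a2, a chain of basement membrane collagen, had 9.59, 9.63 and 9.71 at CT13, against 10.12, 10.14 and 10.16 at CT1, with a clear gap (-0.49 ± 0.10, adjusted p = 0.0074). The Col4a2 call ended with loess and without CT13 replicate 1 (adjusted p = 0.0794). Mmp14, a membrane-bound matrix protease, had 9.99, 9.88 and 9.95 at CT13, against 10.27, 10.41 and 10.25 at CT1 (-0.37 ± 0.08, adjusted p = 0.0111). Its call ended after quantile normalization and after loess (adjusted p up to 0.0706). The other lower genes were Col4a1 and Col5a1, and after those scalings 1 of the 4 was lower. Fn1, the fibronectin gene, was higher (0.54 ± 0.15, adjusted p = 0.0352), with 11.41, 11.15 and 11.91 at CT13, against 10.78, 11.20 and 10.89 at CT1. Its groups overlapped, and the call ended without CT13 replicates 1 or 3 or CT1 replicates 1 or 3 (adjusted p up to 0.164) and with the mesothelium score as a covariate (0.0571).

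Endothelial markers were the cell type list with the most calls, 3 lower of 9, and a median of -0.24. Over all genes 5.42% were lower. These markers are bright, with a median at the 88.3th percentile of signal. In the 9th bin of mean signal 169 of 1552 genes were lower, with a median difference of -0.093. After loess the list had a median of -0.22 and 3 lower genes. Whether the list differs from genes of like signal was not tested. Cldn5, a tight junction protein of endothelium, had 9.19, 9.07 and 9.50 at CT13, against 9.91, 9.97 and 10.04 at CT1. It was 1.65-fold lower (-0.72 ± 0.12, adjusted p = 0.0021), and its call held in all 21 alternatives. Kdr, the VEGF receptor gene, had 10.14, 10.38 and 10.37 at CT13, against 10.77, 10.86 and 10.68 at CT1 (-0.48 ± 0.10, adjusted p = 0.00623). Its call ended with loess and without CT13 replicate 1 (adjusted p = 0.0672). Cdh5, the cadherin of endothelial junctions, gave -0.24 ± 0.07 (adjusted p = 0.0314) and lost its call without CT13 replicate 1 or any CT1 array (adjusted p up to 0.137). Pecam1 gave -0.06 ± 0.09 (adjusted p = 0.691) and Emcn 0.11 ± 0.09 (adjusted p = 0.451). The mean log2 signal of the 9 markers was 10.15 to 10.34 over the CT13 arrays and 10.46 to 10.48 over the CT1 arrays. The collagen IV genes are also made by endothelium, and the part of its share of the tissue in their differences was not tested.

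Other cell type lists held few calls, beside 1.69% higher and 5.42% lower over all genes. Of 11 adipocyte markers Lep was the 1 called gene, and the list median was -0.0043, near 0 under every scaling. Among the 8 genes of smooth muscle and pericytes Acta2 was higher (0.44 ± 0.13, adjusted p = 0.047), a call lost without CT13 replicates 1 or 3 or CT1 replicates 2 or 3 (adjusted p up to 0.196) and with arrays shifted to the same median. As deposited, no marker was called among 10 of mesothelium, 12 of macrophages and 8 of fibroblasts and preadipocytes. The medians of these lists were 0.27, 0.19 and 0.16, and all 10 mesothelial differences were above 0. The mean log2 signal of the mesothelial markers was 8.93, 8.93 and 9.44 at CT13, against 8.91, 8.99 and 8.55 at CT1, so that CT13 replicate 3 was high and CT1 replicate 3 low. The same CT13 mouse was highest for Fmo2, Srpx2 and Fn1. With the mesothelium score, the markers' median deviation per array, as a covariate, the difference was 0.94 in Fmo2 (adjusted p = 0.000735), 0.56 in Srpx2 (adjusted p = 0.0703) and 0.41 in Fn1 (adjusted p = 0.0571). The other marker lists (epididymis, mast cells, T cells, B cells, skeletal muscle, erythrocytes, brown adipocytes and neurons) had no called gene, with medians from -0.054 to 0.14.

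**Figure D3:**
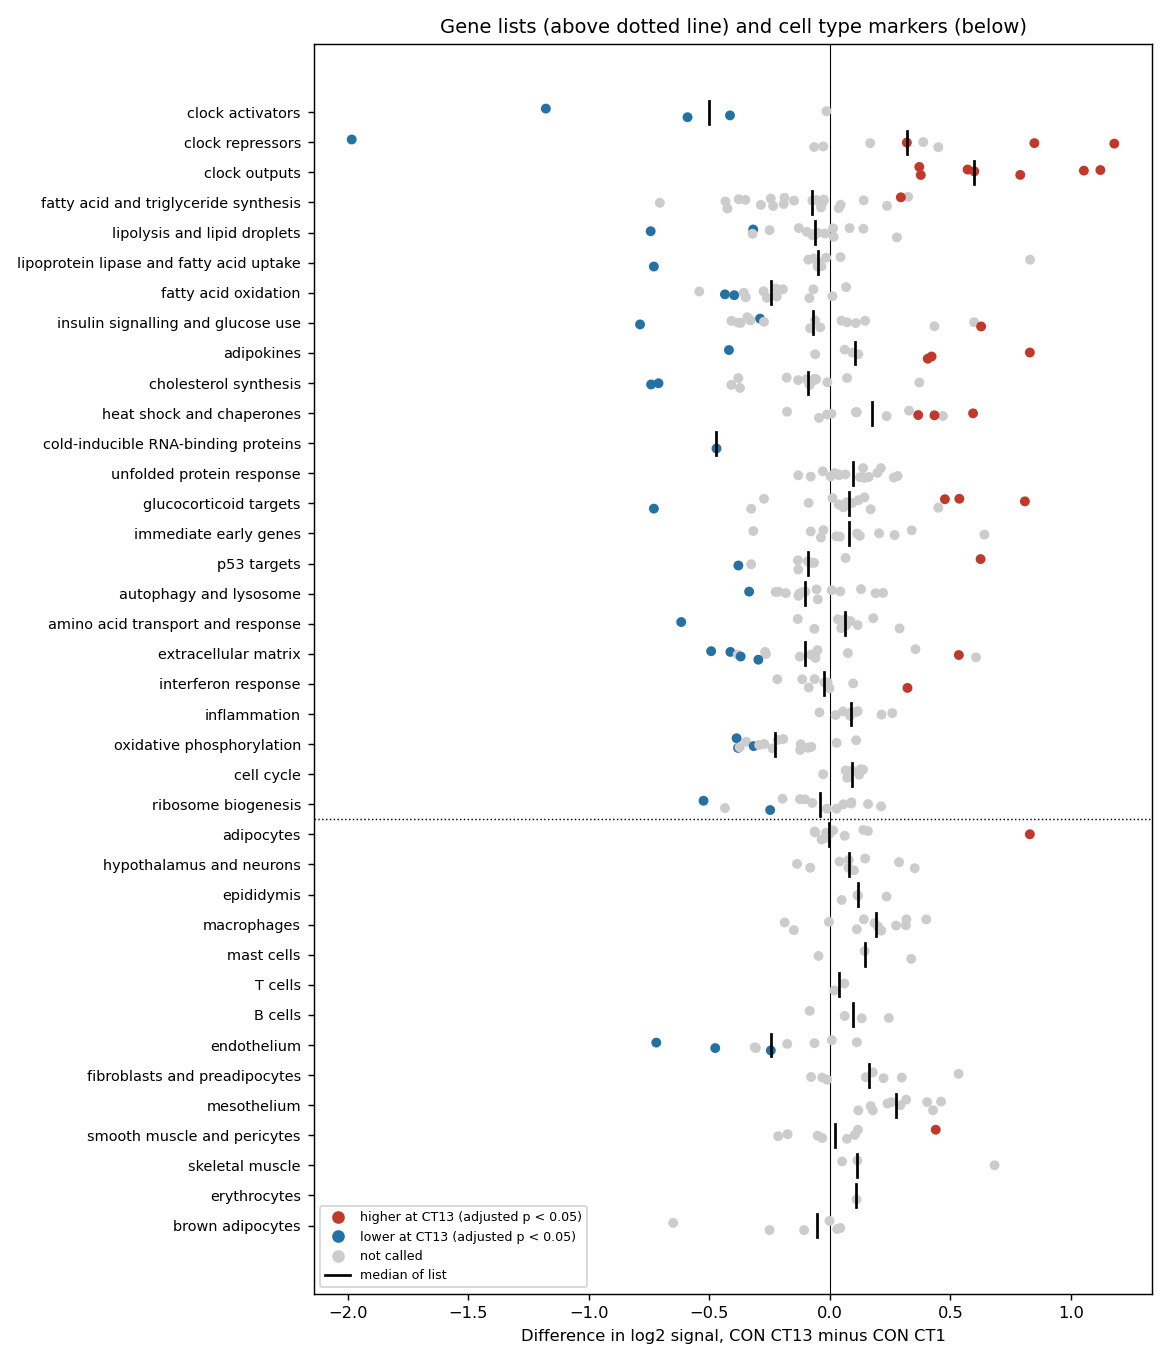
Difference in log2 signal between CON CT13 and CON CT1 for every tested member of the gene lists (above the dotted line) and cell type markers (below it), with 1 point a gene, coloured red where higher, blue where lower and grey where not called, and a black tick at the median of each list. All 7 clock outputs are red, while most metabolic lists are grey with 1 or 2 blue points.

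The same controls were also sampled at CT7 and CT19, on 6 further arrays. Between CT19 and CT7, 1658 genes were called (10.7%), 1160 higher and 498 lower at CT19, and 585 with the mesothelium score as a covariate. That count was 886 without CON CT7 replicate 3 and 1070 without CON CT19 replicate 2. Both pairs of times called 216 genes, which is 19.6% of the CT13 and CT1 list and 13% of the CT19 and CT7 list. Of the 262 genes higher at CT13, 59 were also higher at CT19 than at CT7 and 5 were lower. Of the 841 lower at CT13, 118 were also lower at CT19 and 34 were higher. The mean at CT19 lay between those of CT13 and CT1 in 84.4% of the higher and 86.9% of the lower genes, and that at CT7 in 71% and 79.9%. Over all genes these shares were 45.1% at CT19 and 41.7% at CT7. Being called makes the gap between CT13 and CT1 wide, which raises these shares.

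The clock genes spread over all 4 corners of this plane. Of the 20 tested, 14 were called between CT19 and CT7 and 11 in both pairs. Dbp, Per3 and Tef were higher at CT13 and lower at CT19, with CT19 minus CT7 differences of -2.13, -1.57 and -0.87, so their highest means stood at CT7. Arntl, Npas2 and Clock were lower at CT13 and higher at CT19 (1.47, 1.45 and 0.79), with the highest means at CT19. Bhlhe40 was higher at both (1.17 at CT19), as were Lep (1.10), Fmo2 (1.02) and Ppp1r3c (1.21), while Nr1d1 was lower at both (-2.81 at CT19). Usp2, Wee1, Tspan4 and Tsc22d3 differed between CT13 and CT1 but were not called between CT19 and CT7 (from -0.20 to 0.21, adjusted p from 0.0951 to 0.626). Klb followed the activators, lower at CT13 and higher at CT19 (0.70, adjusted p = 0.0017), as did Dtx4 (1.06) and Hmgcs1 (0.60).

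**Figure D4:**
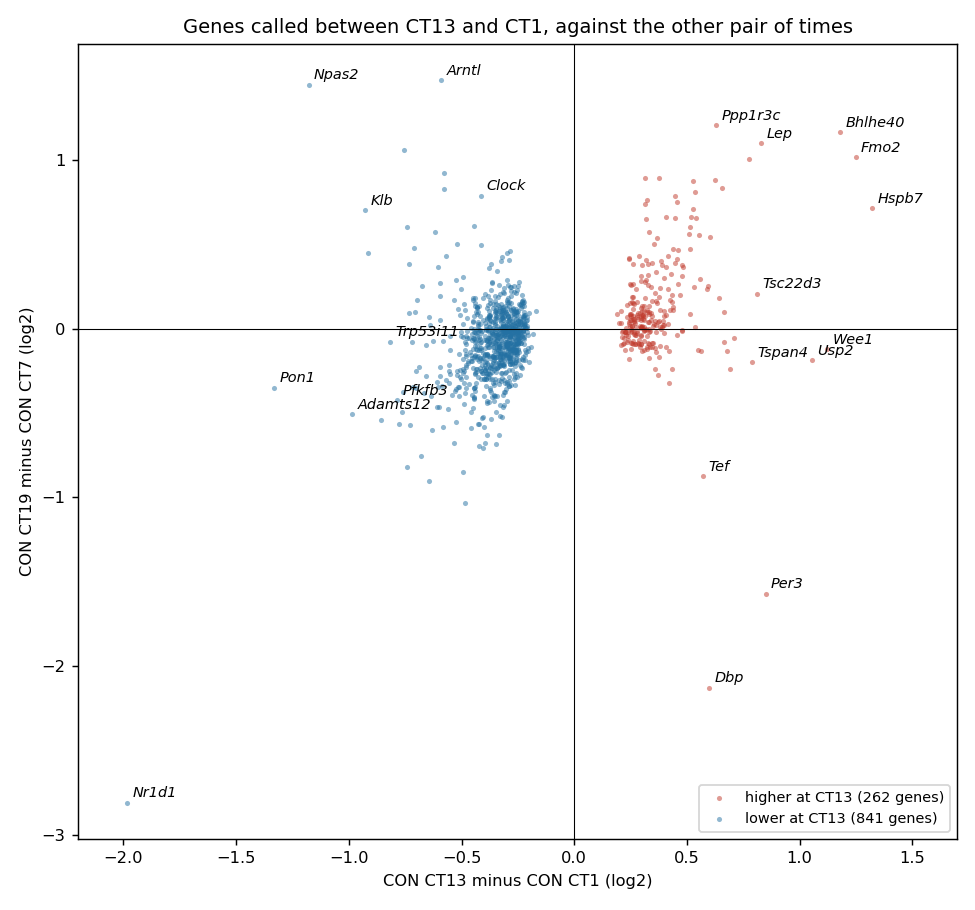
Each point is 1 of the 1103 genes called between CON CT13 and CON CT1, with that difference in log2 signal on the horizontal axis and CON CT19 minus CON CT7 on the vertical axis (red higher, blue lower at CT13). Nr1d1 lies at the lower left, Dbp, Per3 and Tef at the lower right, Arntl and Npas2 at the upper left, and Bhlhe40, Fmo2 and Lep at the upper right.

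In MUT mice the same 2 times called 8 genes (0.0515%). These were Arntl, Nfil3 and Gm6958, higher at CT13, and Nr1d1, Nr1d2, Dbp, Per1 and Nenf, lower. At an unadjusted p under 0.05, limma passed 3861 genes in CON and 1454 in MUT. The MUT count was 27 without MUT CT13 replicate 1 and 3 without MUT CT13 replicate 3 or MUT CT1 replicate 1, 5 without MUT CT1 replicate 2 and 4 without MUT CT1 replicate 3. The 262 genes higher at CT13 in CON had a median difference of 0.32 in CON and 0.041 in MUT, and 61.1% of them were above 0 in MUT, against 41.2% of all genes. The 841 lower genes had a median of -0.33 in CON and -0.094 in MUT, with 84.4% below 0 in MUT, against 58.8% of all genes. Genes were chosen for being large in CON, so their medians in CON are raised by the choice.

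Nr1d1 differed by nearly as much in MUT, with 10.34, 9.80 and 9.84 at CT13, against 11.70, 11.80 and 11.69 at CT1 (-1.73 ± 0.17, adjusted p = 1.25e-05). The difference between genotypes, CON minus MUT, was -0.25 ± 0.24 (adjusted p = 0.739). That covers CT13 and CT1 only. The Nr1d1 means at CT7 and CT19 were 12.23 and 9.42 in CON, but 10.83 and 11.66 in MUT. Nfil3 (0.38 in CON, 0.63 in MUT) and Cry1 (0.32 in CON, 0.36 in MUT) were higher at CT13 in CON with differences above 0 in MUT too, with differences between genotypes of -0.25 ± 0.14 (adjusted p = 0.544) and -0.04 ± 0.13 (adjusted p = 0.937). Nr1d2 gave -0.065 in CON and -1.18 in MUT, a difference between genotypes of 1.11 ± 0.27 that did not pass (adjusted p = 0.118).

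The difference itself was called in 18 genes (0.116%), and in 15 of them CON and MUT had opposite signs. Of the 18, 9 were clock list genes. Arntl was 0.59 lower at CT13 in CON but higher in MUT, with 9.51, 9.46 and 9.58 at CT13, against 8.37, 8.80 and 8.30 at CT1 (difference between genotypes -1.62 ± 0.20, adjusted p = 0.000467). Per3, higher at CT13 in CON, had 9.45, 9.05 and 8.77 at CT13, against 10.01, 9.53 and 9.73 at CT1 in MUT (1.52 ± 0.22, adjusted p = 0.0017). Dbp and Per1 likewise had 1.5 ± 0.24 (adjusted p = 0.00518) and 1.26 ± 0.20 (adjusted p = 0.00522). Npas2 gave the widest gap, -1.80 ± 0.24 (adjusted p = 0.000821), and Tef 1.10 ± 0.15 (adjusted p = 0.00137). In Wee1, Usp2 and Tspan4 the MUT difference was small (0.0115, 0.19 and -0.0057) and the gap to CON was 1.11 ± 0.18, 0.87 ± 0.14 and 0.80 ± 0.13. A small difference between CT13 and CT1 does not make a signal flat over the day. The MUT means at CT7 and CT19 were 8.79 and 7.93 in Wee1, 9.69 and 8.84 in Usp2, and 9.71 and 9.56 in Tspan4.

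The other 9 genes lie outside the clock lists. Tsc22d3 had the smallest p, with 9.44, 9.39 and 9.29 at CT13, against 9.50, 9.46 and 9.55 at CT1 in MUT, where its mice of both times were nearly level (0.94 ± 0.11, adjusted p = 0.000298). Map3k6, also a glucocorticoid target, gave 0.80 ± 0.13 (adjusted p = 0.00518). Dtx4, a ubiquitin ligase of the Deltex family, gave -1.10 ± 0.19 (adjusted p = 0.00752) and Pfkfb3 -0.75 ± 0.13 (adjusted p = 0.0122). Lep and Klb, with MUT differences of 0.05 and -0.02, missed the threshold (0.78 ± 0.20, adjusted p = 0.136, and -0.91 ± 0.19, adjusted p = 0.057). The calls of Npas2, Arntl, Usp2, Tsc22d3, Tef, Wee1, Per1, Dbp and Per3 held in every alternative run. Those of the other 9 ended in at least 1, Tspan4 with the arrays of the contrast alone (adjusted p = 0.117), Dtx4 in 2 and Pfkfb3 in 3, among them without MUT CT13 replicate 3. The highest adjusted p over all alternatives was 0.116 for Dtx4 and 0.0775 for Pfkfb3.

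**Figure D5:**
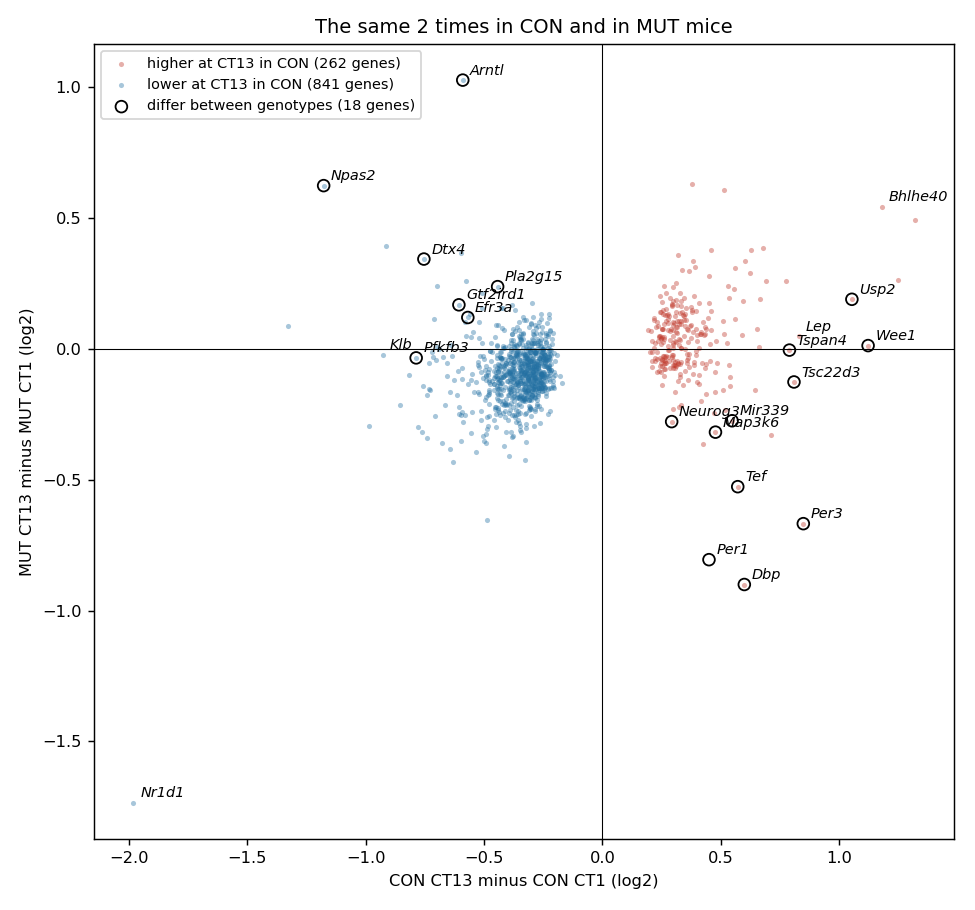
Difference in log2 signal between CT13 and CT1 in CON (horizontal axis) and in MUT (vertical axis) for the genes called in CON (red higher, blue lower), with black rings on the 18 genes whose difference between genotypes was called. Nr1d1 lies far down in both, Per3, Dbp, Per1 and Tef at the lower right, Arntl and Npas2 at the upper left, and most called genes near 0 in MUT.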

How the data were processed

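RNA of mouse eWAT was measured on 24 Affymetrix arrays. The deposited values are log2 signals, 1 for each probe set. RMA and Affymetrix Expression Console are named in the submitters' processing notes, and the sources used here give neither version nor settings. RMA commonly brings arrays to near-equal distributions, so a shift of all genes could not be seen. Of 34390 probe sets, 23521 carry 1 gene symbol, 1814 several (Per2 among them) and 9055 none, and 193 single symbols found no match in RefSeq (GRCm38.p6).

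Genes whose mean signal was under 7.416, the 30th percentile, were dropped. A cell-means model of the 8 groups (16 residual degrees of freedom) was fitted to the 24 arrays with limma 3.58.1 in R 4.3.3, with moderated two-sided tests and Benjamini-Hochberg adjustment over 15526 genes at 0.05. The fit was tested on simulated data. Figures used Python 3.11.15 and matplotlib 3.10.9. The comparison, lists and named genes were chosen with earlier results of these data known. Named were all clock list members, Arntl and Syt10, the 12 highest and 12 lowest called differences, up to 4 called members of each other list by smallest p, and the 8 largest called differences between genotypes. Genes outside this rule (Adipoq, Fasn, Angptl8, Pecam1, Emcn, Mir339 and the D-box holders) were chosen after their values were seen. Syt10, whose locus carries the Cre, gave 7.62, 7.50 and 7.64 at CT13, against 7.46, 7.55 and 7.54 at CT1.

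Alternatives comprised 3 other scalings (cyclic loess, quantile, a common median), no filter or a filter at the 60th percentile, averaged probe sets, trended and robust variance, array weights, title letters as a block, a mesothelium score (the list's median deviation per array) as a covariate, fits of fewer arrays, a fold of at least 1.5 and each array left out. Leaving out 3 arrays of narrow spread (CON CT7 replicates 2 and 3, CON CT13 replicate 1), and loess without CON CT13 replicate 1, were added after seeing the data.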

Additional observations from a re-analysis of the deposited data

Results flagged for a closer look

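In 18 genes the difference between CT13 and CT1 was not the same in CON and in MUT by limma's test of that difference (adjusted p from 0.000298 to 0.0166). Where the value, CON minus MUT, is below 0, the gene was lower at CT13 in CON than in MUT relative to CT1. These were Npas2 (-1.80), Arntl (-1.62), Dtx4 (-1.10), Gtf2ird1 (-0.77), Pfkfb3 (-0.75), Efr3a (-0.69) and Pla2g15 (-0.68). Gtf2ird1 is a transcription factor, Efr3a anchors a lipid kinase at the plasma membrane, and Pla2g15 is a lysosomal phospholipase.

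Above 0 were Neurog3 (0.57), Tspan4 (0.80), Map3k6 (0.80), Mir339 (0.82), Usp2 (0.87), Tsc22d3 (0.94), Tef (1.10), Wee1 (1.11), Per1 (1.26), Dbp (1.5) and Per3 (1.52). In CON 17 of the 18 differences were called on their own, the exception being Per1, and in MUT 3 were (Arntl, Dbp and Per1). The calls of Gtf2ird1, Efr3a and Pla2g15 ended in 6, 6 and 9 of 26 alternatives (adjusted p up to 0.114, 0.0919 and 0.0861), Gtf2ird1 without any of 5 single arrays, Efr3a of 4 and Pla2g15 of 6. Neurog3 and Map3k6 lost theirs with the arrays of the contrast alone (adjusted p = 0.0925 and 0.0646), and Mir339 without the 3 arrays of narrow spread (adjusted p = 0.0539).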

How the results depend on the processing

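Against 262 genes higher and 841 lower at CT13, quantile normalization gave 397 higher and cyclic loess 447 lower, array weights 489 higher, the 6 arrays of the contrast alone 123 and 433, and a fold of at least 1.5 23 and 50. Without the 3 arrays of narrow spread 71 were higher and 274 lower, and with loess and without CON CT13 replicate 1 99 and 132. Leaving out single arrays gave 68 to 230 higher and 207 to 792 lower, and CON CT13 replicate 1 and CON CT1 replicates 1 and 3 each moved both by over 1.5 times (68 and 207, 119 and 354, 75 and 230). The 8 genes called in MUT were 5 with array weights, 1 with the arrays of the contrast alone, 4 with the 12 MUT arrays and 3 to 27 with single arrays left out. The 18 genes that differed between genotypes were 28 with the mesothelium score, 11 with the arrays of the contrast alone and 16 to 38 with single arrays left out (33 when CON CT13 replicate 2 was dropped, 38 for MUT CT13 replicate 2 and 34 for MUT CT1 replicate 2). Between CON CT19 and CON CT7 the 1658 calls were 2678 with array weights, 585 with the mesothelium score, 258 at a fold of at least 1.5 and 886 to 1331 with single arrays left out. The causes were not tested, beyond the fewer arrays or the fold threshold where these were the change made.

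The sign turned for 3 genes that were not called. Rora gave 0.0671 with quantile normalization, 0.0689 with loess, 0.0129 with array weights, 0.0711 without the 3 arrays, 0.1336 with loess and without CON CT13 replicate 1, and -0.0609 to 0.0711 with single arrays left out. Cry2 gave 0.0551, 0.063, 0.0225 and 0.0877 in the same order without array weights, and -0.0923 to 0.0225 with single arrays left out. Nr1d2 gave 0.0158 with quantile normalization, 0.0225 with loess, 0.0105 with loess and without CON CT13 replicate 1, and -0.219 to 0.0784 with single arrays left out. Of the 69 named genes that were called, 26 kept the call in every alternative in which they were tested. For Wee1, Crtac1 and Hspa1b these were 20 of the 21, as they were too dim for the stricter filter on mean signal.

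The letters of the titles were not taken to pair mice in the main fit. Deviations of CON CT13 and CON CT1 arrays of the same letter correlated at -0.1692, -0.1011 and -0.0386, against -0.0770 to 0.1792 for different letters. Same-letter values reached 0.2103 between MUT CT13 and MUT CT1 and 0.1688 between CON CT19 and CON CT7. Different-letter values there reached 0.1640 and 0.0963. With the letters as a block 205 genes were higher and 727 lower, with 6 called in MUT, 18 between genotypes and 1552 between CON CT19 and CON CT7. Depth has no counterpart on arrays, and signal over background limits dim genes, of which those under the 30th percentile were not tested (914 called in all when they were).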

Other observations

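Small nucleolar RNA genes, which guide chemical marks on ribosomal RNA, were examined after their values were seen. Of 55 tested 6 were lower at CT13 (10.9%), none was higher, and 49 differences were below 0, with a median of -0.24 in CON and -0.089 in MUT. Over all genes tested 5.42% were lower, and 53.2% of differences were below 0. The median log2 signal of the small nucleolar RNA genes was 9.60, between those of the 8th and 9th bins (9.46 and 9.94). In these bins 155 of 1553 and 169 of 1552 genes were lower, with median differences of -0.0986 and -0.0930. Whether small nucleolar RNA genes differ from genes of like signal was not tested. Snord35a had 10.04, 10.07 and 10.20 at CT13, against 10.53, 10.60 and 10.59 at CT1 (-0.47 ± 0.08, limma adjusted p = 0.0026). Snord49a (-0.72 ± 0.18, adjusted p = 0.0195), Snord65 (-0.70 ± 0.14, adjusted p = 0.00623), Snora69 (-0.63 ± 0.19, adjusted p = 0.0437), Snord87 (-0.60 ± 0.17, adjusted p = 0.0368) and Snord85 (-0.33 ± 0.07, adjusted p = 0.0109) were the others. Of 14 small nucleolar RNA host genes (Snhg) 2 were lower, Snhg5 (-0.69 ± 0.15, adjusted p = 0.00883) and Snhg1 (-0.29, adjusted p = 0.0405). After cyclic loess the median was -0.22 and 4 were lower. These RNAs are short, and the part of RNA extraction or labelling in their levels was not tested.

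Thra, the thyroid hormone receptor gene that overlaps Nr1d1 on the other strand, was 1.54-fold lower at CT13 in CON, with 9.14, 9.31 and 9.24 at CT13, against 9.99, 9.71 and 9.87 at CT1 (-0.63 ± 0.08, adjusted p = 6.76e-05). In MUT it gave -0.12 ± 0.08 (adjusted p = 0.635), and Nr1d1 gave -1.73 there. Whether the differences of the overlapping genes are linked was not tested. Thra was chosen after its value was seen, and whether its probes read strand was not tested.

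Of 14037 protein-coding genes tested 225 were higher and 805 lower, and of 172 miRNA genes 9 were higher and 2 lower. In all 7.34% and 6.4% were called, against 7.1% of all genes (1.69% higher, 5.42% lower). The miRNA genes had a median log2 signal of 8.38, and the 4th bin, with a median of 8.28, had 23 higher and 38 lower calls. Whether the split of miRNA genes differs from that of genes of like signal was not tested. Ffar2, which encodes a receptor for short-chain fatty acids that restrains lipolysis, was chosen after its value was seen and was lower, with 8.59, 8.52 and 8.65 at CT13, against 9.29, 9.16 and 9.22 at CT1 (-0.64 ± 0.12, adjusted p = 0.00367).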
